A study of Mus musculus with 2 samples.

Results

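The genes studied here encode the respiratory chain and the ATP synthase of mitochondria, and they were taken as the rows of both count tables whose gene symbol marks a subunit of complexes I to V (mt-Nd, mt-Co, mt-Atp and mt-Cyt in the mitochondrial genome, and Ndufa, Ndufb, Ndufc, Ndufs, Ndufv, Sdha to Sdhd, Uqcr, Cox4 to Cox8 and Atp5 in the nucleus). Pseudogenes, the Ndufaf assembly factors, Ndufa4l2 and Cox6a2 were left out by the same rule. This gave 97 of 31053 rows, 13 of them encoded by mitochondrial DNA and 84 by nuclear DNA. The 84 nuclear rows carry 83 symbols, because Atp5o has a pair of gene identifiers. Of the nuclear rows, 36 belong to complex I, 4 to complex II, 8 to complex III, 18 to complex IV and 18 to complex V, with Ndufa4 counted under complex IV and Atp5s, a factor of the ATP synthase, under complex V. The mitochondrial genes are 7 of complex I, 1 of complex III, 3 of complex IV and 2 of complex V.

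The respiratory chain passes electrons from NADH and succinate to oxygen while complexes I, III and IV pump protons across the inner mitochondrial membrane, and complex V uses the proton gradient to make ATP. The complexes other than complex II are mosaics of subunits encoded in both genomes. Mitochondrial DNA is transcribed inside the organelle as long polycistronic RNA, while the nuclear genes have promoters of their own. In pancreatic beta cells this chain couples glucose oxidation to the rise in ATP that triggers insulin release.

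Islet cells came from wild-type NOD/ShiLtJ mice, an inbred strain prone to autoimmune diabetes, at 15 weeks of age, on a diet with 20% HC or with 16% HC and 4% gluten. The labels do not expand HC. Cells of 3 mice were pooled per diet into 1 library each (10x Genomics, single cell 3' v3), so no test across animals could be made, every interval below is a 95% interval that covers counting error only, and diet, pool and library cannot be told apart. In the gluten library 8200 barcodes carried 88268070 UMIs (unique molecular identifiers, each standing for 1 captured molecule), and in the other library 7758 barcodes carried 116900677. After filters 7122 and 7111 cells were kept, and marker genes assigned 5732 (80.5%) and 6264 (88.1%) of them to a type, called gated. The same 15 barcode sequences occur in both libraries. All paired values give the library with gluten first.

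The 9 classes with at least 50 gated cells in each library were compared. They held 1280 and 1578 beta-gated, 1059 and 583 alpha-gated, 556 and 279 delta-gated, 1104 and 2090 T-gated, 826 and 1074 B-gated, 196 and 187 macrophage-gated, 61 and 70 cDC2-gated (conventional dendritic cells of type 2), 290 and 130 endothelial-gated and 171 and 98 mesenchymal-gated cells. Each class was treated as 1 pool of UMIs per library, and a sum of genes is given as a share of that pool, a single gene as CPM (its UMIs scaled to a pool of 1000000). These are counts of RNA 3' ends, not per length, so levels are compared for 1 gene between classes. Where values of different genes stand side by side, no ratio between single genes is drawn. A log2 ratio is CPM with gluten over CPM with HC alone, and a gene was taken as measured where the library with more of it per UMI had 50 or more. Of the nuclear rows, 78 were measured in at least 1 class and 6 in none.

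RefSeq lists a promoter window (250 bases before to 50 after a transcript start, GRCm38.p6) for 69 of the 83 nuclear symbols. The unmatched symbols include Atp5a1, Atp5mpl, Cox4i1, Cox4i2, Cox6c, Cox8c, Ndufa2, Ndufb9, Ndufs1, Sdhc, Uqcrb, Uqcrc2 and Uqcrq. Short strings for 4 factor families tied in textbooks to nuclear genes of mitochondria were searched on both strands. CGCATGCG, a core of the NRF1 motif, stood in the windows of 9 of the 69 genes (13%), against 2.07% of 27025 genes in the table. CCGGAAG, bound by ETS factors such as GABP, stood in 16 (23.2%, against 9.93%), AAGATGGCG, bound by YY1, in 7 (10.1%, against 1.64%) and TCAAGGTCA, bound by oestrogen-related receptors, in 2 (2.9%, against 0.466%). A match is a string of letters and no evidence of binding. The lines below, from 5′ to 3′ with motif letters in capitals, show Atp5j with 3 motifs in 1 window, and 3 genes that the results below turn on: Ndufa8, highest in endothelial-gated cells, Ndufa9, lower with gluten in beta-gated cells, and Cox5a, low in endocrine cells, whose window holds none of the 4 strings.
Atp5j (chr16:84834927-84835226, minus strand): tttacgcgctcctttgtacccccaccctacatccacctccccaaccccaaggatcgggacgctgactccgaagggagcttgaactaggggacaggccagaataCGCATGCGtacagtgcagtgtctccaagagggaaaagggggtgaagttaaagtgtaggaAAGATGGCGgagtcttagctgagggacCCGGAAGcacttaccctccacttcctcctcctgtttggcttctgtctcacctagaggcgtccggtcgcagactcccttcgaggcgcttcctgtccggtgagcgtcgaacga
Ndufa8 (chr2:36049289-36049588, minus strand): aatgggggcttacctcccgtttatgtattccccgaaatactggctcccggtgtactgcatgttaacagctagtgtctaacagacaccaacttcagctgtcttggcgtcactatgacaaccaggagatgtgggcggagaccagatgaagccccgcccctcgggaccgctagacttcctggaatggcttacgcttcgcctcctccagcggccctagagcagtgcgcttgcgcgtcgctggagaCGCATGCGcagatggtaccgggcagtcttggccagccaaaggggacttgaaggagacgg
Ndufa9 (chr6:126849095-126849394, minus strand): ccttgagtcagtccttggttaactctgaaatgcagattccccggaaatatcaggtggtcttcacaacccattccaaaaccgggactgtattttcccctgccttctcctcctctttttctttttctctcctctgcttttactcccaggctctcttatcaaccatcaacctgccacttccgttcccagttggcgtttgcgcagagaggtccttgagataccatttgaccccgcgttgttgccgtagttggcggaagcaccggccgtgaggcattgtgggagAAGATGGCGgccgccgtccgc
Cox5a (chr9:57520982-57521281, plus strand): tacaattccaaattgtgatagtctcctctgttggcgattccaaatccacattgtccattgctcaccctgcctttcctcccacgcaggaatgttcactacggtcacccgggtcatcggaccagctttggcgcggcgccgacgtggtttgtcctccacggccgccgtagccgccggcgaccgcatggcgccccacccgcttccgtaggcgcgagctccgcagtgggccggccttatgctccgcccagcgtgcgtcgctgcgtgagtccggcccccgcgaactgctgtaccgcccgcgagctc
The Atp5j window holds CGCATGCG, AAGATGGCG and CCGGAAG in that order, the Ndufa8 window CGCATGCG near its start site, and the Ndufa9 window AAGATGGCG.

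RNA of the mitochondrial genome took a larger share of UMIs with gluten in all 9 classes, while the summed nuclear members stayed near their level. In beta-gated cells the 13 mitochondrial genes made up 2.75% and 2.14% of UMIs, a log2 ratio of 0.37 [0.36, 0.37]. The nuclear members made up 1.05% and 1.11% of the same cells' UMIs, a log2 ratio of -0.08 [-0.09, -0.08]. T-gated cells had mitochondrial shares of 4.15% and 3.39% (log2 ratio 0.29) and nuclear shares of 2.05% and 2.03%. B-gated cells, with the highest mitochondrial shares of the 9 classes in both libraries, stood at 5.26% and 4.24% (0.31) beside nuclear shares of 1.71% and 1.63%. Over the 9 classes the log2 ratio of the mitochondrial sum ran from 0.20 in mesenchymal-gated to 0.37 in beta-gated cells. That of the nuclear sum ran from -0.10 in macrophage-gated to 0.06 in B-gated cells and was above 0 in 4 of 9 classes. These 4 include T-gated cells at 0.01 [0.00, 0.03] and endothelial-gated cells at 0.00 [-0.03, 0.03].

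**Figure D1:**
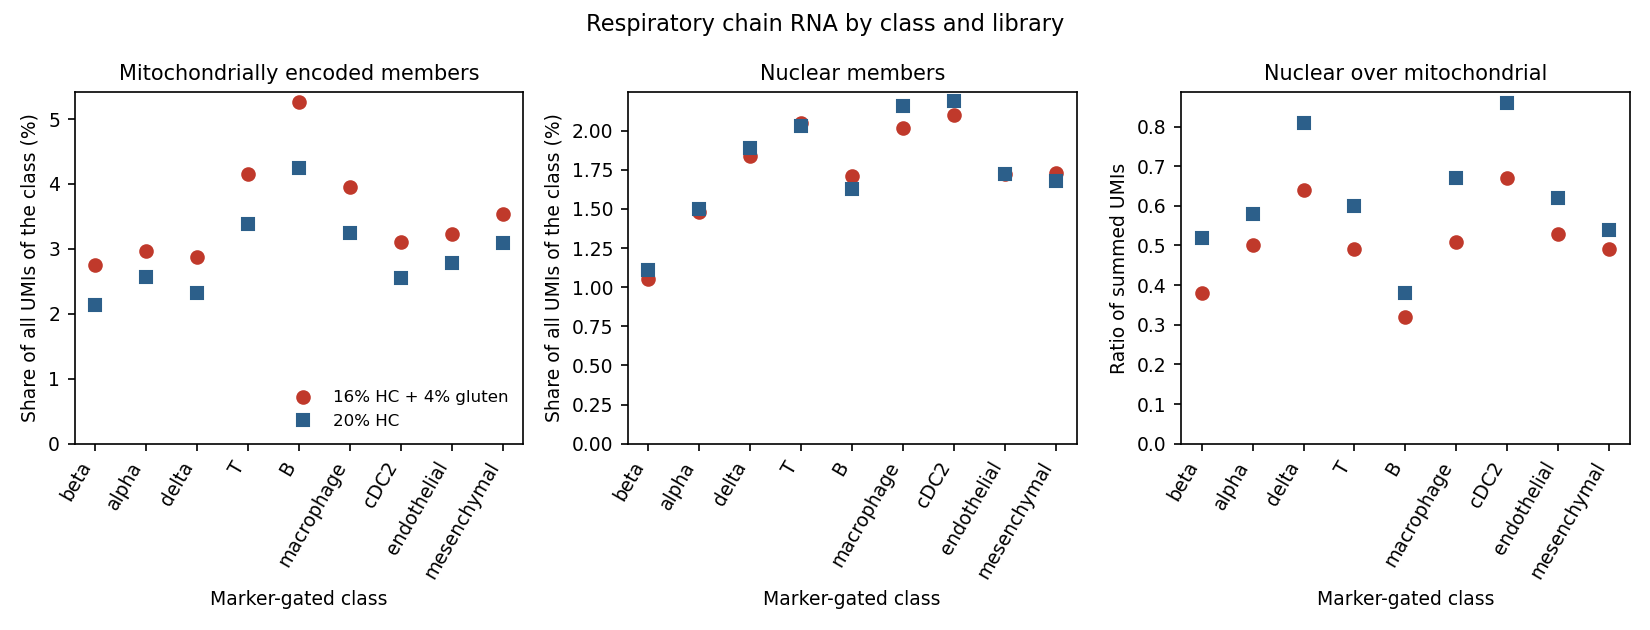
Share of all UMIs of a class (%) from the 13 mitochondrially encoded members (left) and the nuclear members (middle), and the ratio of the 2 sums (right), for 9 marker-gated classes in the library with gluten (circles) and with HC alone (squares). The circles lie above the squares in all 9 classes on the left and below them in all 9 on the right.

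The ratio of nuclear to mitochondrial UMIs was lower with gluten in all 9 classes. It was 0.38 and 0.52 in beta-gated, 0.50 and 0.58 in alpha-gated, 0.64 and 0.81 in delta-gated, and 0.49 and 0.60 in T-gated cells. B-gated cells had the lowest ratio in both libraries, 0.32 and 0.38, and cDC2-gated cells the highest, 0.67 and 0.86. The log2 difference between the libraries ran from -0.15 in mesenchymal-gated to -0.45 in beta-gated cells.

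Depth moved with the diet, and the mitochondrial difference was not the same at all depths. Median UMIs per cell were lower with gluten in each of the 9 classes, for example 27627 and 37225.5 in beta-gated, 2304 and 2784 in T-gated and 5784 and 12084 in macrophage-gated cells. Cells were therefore also compared within bins of UMIs per cell (each bin spans a doubling and holds at least 20 cells in both libraries), a comparison chosen after seeing the data. The median mitochondrial share was higher with gluten in 23 of 29 bins, and the median nuclear share in 18 of 29. The mean over bins of the log2 ratio of summed mitochondrial shares was 0.18 in T-gated and 0.13 in B-gated cells. It was 0.09 in macrophage-gated, 0.05 in alpha-gated and 0.02 in delta-gated cells, where the pooled sums gave 0.29, 0.21 and 0.31. The nuclear mean of delta-gated cells was also 0.02. The mitochondrial mean was 0.19 in cDC2-gated, 0.15 in endothelial-gated and 0.22 in mesenchymal-gated cells. In beta-gated cells it was 0.30, and 0.14 without the bin of 4000 to 8000 UMIs, whose 28 and 72 cells had summed shares of 8.65% and 4.57%. By summed shares, bins with the opposite order occurred in every class except the cDC2-gated cells. By medians, they occurred in every class except the T-, B- and macrophage-gated cells. Medians of cDC2-gated cells of 4000 to 8000 UMIs were 2.95% and 3.18%. Summed mitochondrial shares were 9.79% and 11% in T-gated cells of 500 to 1000 UMIs. In B-gated cells of 1000 to 2000 UMIs they were 5.17% and 5.57%. Delta-gated cells had 2.81% and 3.43% at 4000 to 8000 UMIs but 2.80% and 2.23% at 8000 to 16000. In alpha-gated cells the log2 ratios ran from -0.15 to 0.22. T-gated cells of 2000 to 4000 UMIs had median shares of 3.93% and 3.35%, and those of 4000 to 8000 UMIs 3.92% and 3.21%. Beta-gated cells of 16000 to 32000 UMIs had 2.64% and 2.56%, and those of 32000 to 64000 UMIs 2.10% and 1.77%. At 8000 to 16000 UMIs the order turned, with 2.69% and 2.88%. Their nuclear share was lower with gluten in 5 of 5 bins (mean log2 ratio -0.20, and -0.07 without the bin of 4000 to 8000 UMIs, where summed shares were 0.748% and 1.24%), while in T-gated and B-gated cells it was higher in 5 of 5 and 4 of 4 bins. Within bins the nuclear mean was above 0 in 7 classes rather than 4, among them macrophage-gated cells at 0.00. It was above 0 in 5 when each class's least filled bin was left out. The ratio of nuclear to mitochondrial RNA was higher with gluten in 1 class, the B-gated cells. Without their least filled bin, B-gated cells had means of 0.13 for nuclear and 0.17 for mitochondrial RNA. The ratio was then lower with gluten in all 9 classes. That step left out the bin with the opposite mitochondrial order in alpha-, delta-, T- and macrophage-gated cells. In beta-, cDC2-, endothelial- and mesenchymal-gated cells it left out the bin with the largest mitochondrial ratio. Delta-, macrophage- and cDC2-gated cells had only 2 bins to begin with. The mitochondrial and nuclear means left were close in cDC2-gated (0.06 and 0.05) and endothelial-gated cells (0.10 and 0.08).

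Other measures moved with the diet in the same cells. Insulin RNA in T-gated cells, which do not make it, stood at 12809 and 7884 CPM, and in B-gated cells at 15316 and 8524 CPM. RNA of 15 acinar enzymes stood at 687 and 105 CPM in T-gated cells. Immediate early genes, which respond within minutes to stimulation or to tissue dissociation, summed to 9473 and 3209 CPM in beta-gated cells, with 18 of 18 measured members at least 1.25-fold higher with gluten. Their part in the result was not tested.

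Among the mitochondrial genes the difference was uneven. Of the 11 measured in every class, 7 were higher with gluten in all 9 classes, mt-Nd1, mt-Nd2, mt-Nd4, mt-Cytb, mt-Co2, mt-Co3 and mt-Atp6, and 5 of these had intervals above 0 in all 9. Of 1231 genes measured in every class, 6.09% were higher with gluten throughout. The nuclear members had 0 of 67 higher throughout and 3 lower throughout, against 7.07% of all genes lower throughout. The classes share their 2 libraries and free RNA, so 9 agreeing classes are not 9 replicates.

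The mitochondrial subunits of complexes III, IV and V had median log2 ratios over classes from 0.16 (mt-Co1) to 0.37 (mt-Atp8). mt-Co2, which takes electrons from cytochrome c, stood at 4490 and 3371 CPM in beta-gated cells, 6744 and 5286 in T-gated cells and 8669 and 6610 in B-gated cells. Its median log2 ratio over the 9 classes was 0.35, with a range of 0.15 to 0.41. mt-Atp6, the proton channel subunit of the ATP synthase, stood at 6051 and 4401 CPM in beta-gated and 9442 and 7467 in T-gated cells, with a median of 0.34 (0.27 to 0.46). The values for mt-Co3 were alike, 4795 and 3706 CPM in beta-gated cells with a median of 0.34 (0.24 to 0.40). mt-Cytb, the cytochrome b of complex III, stood at 3413 and 2650 CPM in beta-gated cells and had a median of 0.28 (0.16 to 0.49). mt-Co1, which carries the oxygen-reducing site, differed less, with 4237 and 3504 CPM in beta-gated cells and a median of 0.16. In macrophage-gated cells it stood at 5930 and 6040 CPM (-0.03).

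The 7 mitochondrial genes of complex I were spread widely. mt-Nd2 stood at 1405 and 985 CPM in beta-gated cells (log2 ratio 0.51) and 1469 and 972 CPM in delta-gated cells (0.60), with a median over classes of 0.30. mt-Nd1 and mt-Nd4 both had a median of 0.16, with 846 and 717 CPM and 1735 and 1557 CPM in beta-gated cells. mt-Nd3 had a median of 0.18 and ran from -0.16 in mesenchymal-gated to 0.48 in delta-gated cells. mt-Nd5 stood at 247 and 209 CPM in beta-gated cells (0.25), but at 308 and 316 in alpha-gated (-0.04) and 394 and 385 in T-gated cells (0.03), with a median over classes of 0.03. mt-Nd6, the only protein-coding gene transcribed from the light strand, was sparse (14.2 and 15.8 CPM in beta-gated cells), and its median over the 5 classes where it was measured was -0.14. mt-Atp8 and mt-Nd4l, with medians of 0.37 and 0.35, overlap their neighbours mt-Atp6 and mt-Nd4, and how reads in the overlaps were assigned was not tested. In the share of the mitochondrial sum, mt-Atp6 took 22.0% and 20.6% in beta-gated cells and mt-Co1 15.4% and 16.4%.

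**Figure D2:**
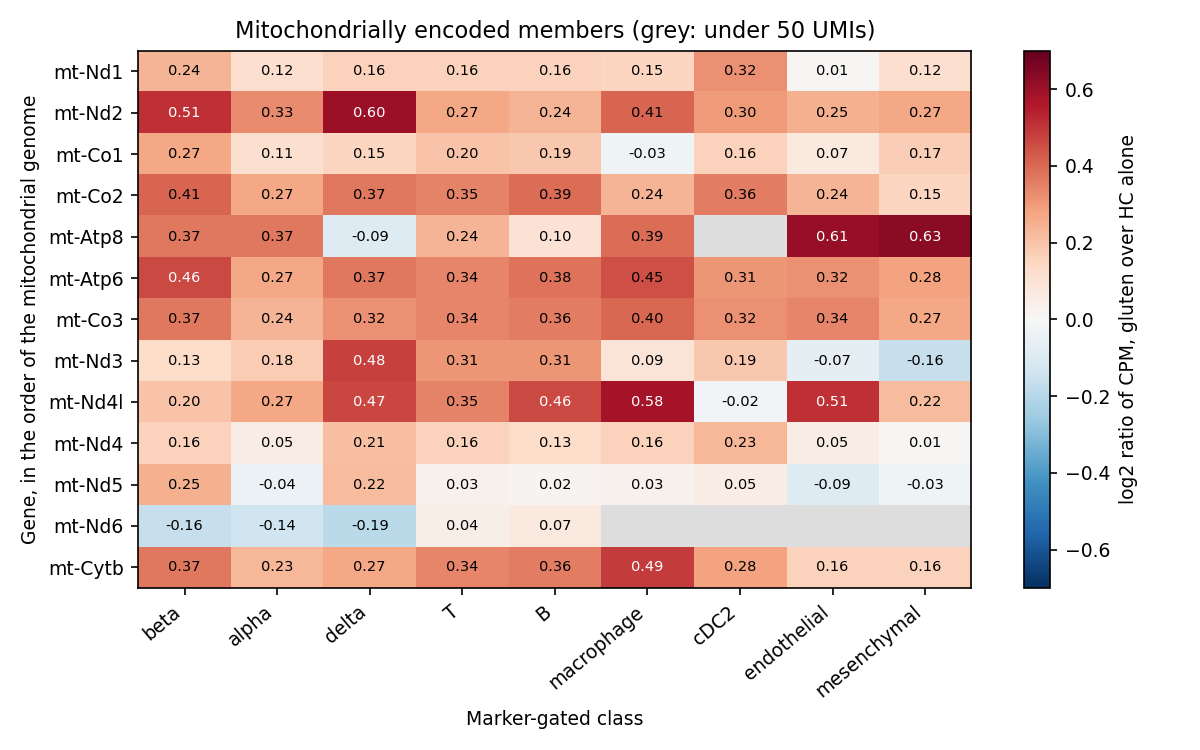
Log2 ratio of CPM, gluten over HC alone, for the 13 mitochondrially encoded members (vertical axis, in genome order) in the 9 marker-gated classes (horizontal axis). mt-Co2, mt-Atp6 and mt-Co3 are above 0 in all 9 classes, and mt-Nd5 lies between -0.09 and 0.25.

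The make-up of mitochondrial RNA also differed between cell types, in the same way in both libraries. mt-Cytb made up 12.4% and 12.4% of it in beta-gated and 12.5% and 12.8% in mesenchymal-gated cells, but 8.53% and 8.25% in T-gated and 8.49% and 8.21% in B-gated cells. mt-Co3 was lower in beta-gated (17.4% and 17.3%) and endothelial-gated cells (17.3% and 15.8%) than in T-gated cells (20.4% and 19.8%). mt-Nd1 made up 3.07% and 3.35% in beta-gated and 3.37% and 3.73% in delta-gated cells, against 5.14% and 5.71% in B-gated cells.

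Counting single genes at 1.25-fold, at least 1 mitochondrial member was called higher with gluten in each of the 9 classes and none lower, while few nuclear members were called. In alpha-gated (15.4%), cDC2-gated (9.09%) and mesenchymal-gated cells (8.33%) the share of mitochondrial members called higher was below that of all measured genes. In beta-gated cells 6 of 13 mitochondrial and 0 of 77 nuclear members were at least 1.25-fold higher, against 11.2% of all measured genes, and 0 and 3 were at least 1.25-fold lower, against 8.7%. The 77 nuclear members split into 17 higher and 60 lower by any amount, with a median of -0.07 beside -0.00 for all genes. Alpha-gated cells had 2 of 13 mitochondrial and 0 of 77 nuclear members higher (18.8% of all genes) and 1 nuclear member lower (9.48%). Delta-gated cells had 6 of 13 and 0 of 77 higher (9.99%) and 2 nuclear members lower (14.2%). In T-gated cells 5 of 13 mitochondrial members were called higher (10.3%). There 0 of 76 nuclear members were called in either direction, and 27.4% of all genes were called lower. The percentages of all genes are not matched to the members by level. The UMI minimum for a measured gene admits sparser genes on the side of the larger pool. T-gated pools held 3439010 and 7802139 UMIs, so the sparsest genes entered there only when lower with gluten. Whether nuclear members were called less often than genes of like level was not tested. B-gated cells had 5 of 13 and 2 of 76 higher (9.36%) and 1 nuclear member lower (30.8%). Macrophage-gated cells had 6 of 12 and 2 of 76 higher (11.5%) and 4 nuclear members lower (27.7%). In cDC2-gated cells 1 of 11 and 0 of 67 were higher (11.7%) and 8 nuclear members lower (27.4%). Endothelial-gated cells had 3 of 12 and 5 of 75 higher (18.4%) and 4 nuclear members lower (14.5%), and mesenchymal-gated cells 1 of 12 and 2 of 76 higher (18.4%) and 2 lower (18.4%). No member reached 2-fold in any of the 9 classes.

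**Figure D3:**
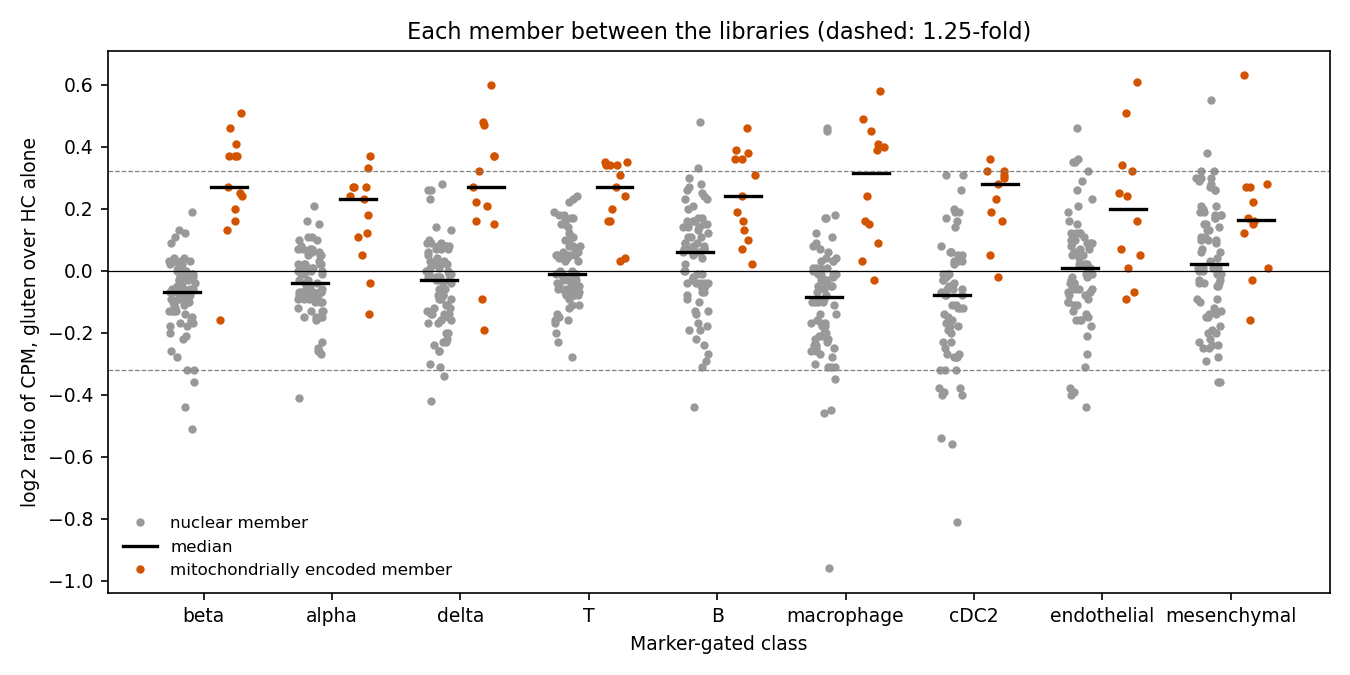
Log2 ratio of CPM, gluten over HC alone (vertical axis), for each measured nuclear member (grey) and mitochondrially encoded member (orange) in 9 marker-gated classes (horizontal axis), with medians as black bars and dashed lines at 1.25-fold. The orange medians lie between 0.17 and 0.32 and the grey medians between -0.09 and 0.06.

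In beta-gated cells the nuclear members that stood out on the lower side included a subunit of complex IV and a subunit of complex I. Ndufa4, a complex IV subunit first assigned to complex I, stood at 166 and 225 CPM in beta-gated cells, a log2 ratio of -0.44 [-0.48, -0.40]. In 7 of 9 classes Ndufa4 was higher with gluten instead, among them B-gated cells with 439 and 367 CPM (0.26 [0.14, 0.38]) and T-gated cells with 515 and 463 CPM (0.16 [0.07, 0.24]). With 1 library per diet the difference between classes was not tested. Ndufa9, a complex I subunit of the arm that faces the matrix, stood at 20.8 and 26.8 CPM (-0.36 [-0.48, -0.24]). On the higher side, Ndufs6 stood at 96.4 and 84.7 CPM (0.19), Cox7a2l, a factor of supercomplex assembly, at 303 and 279 CPM (0.12), and Cox6c at 236 and 220 CPM (0.11). Summed by complex, nuclear log2 ratios in beta-gated cells were -0.11 for complex I, -0.06 for II, -0.05 for III, -0.03 for IV and -0.09 for V.

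A few nuclear members stood out in several classes and others in 1. Ndufa3, a small accessory subunit of complex I, was lower with gluten in 9 of 9 classes and had an interval below 0 in 6. It stood at 27.8 and 34.8 CPM in beta-gated (-0.32), 88.1 and 107 in T-gated (-0.28), 65.6 and 88.8 in B-gated (-0.44) and 79.6 and 140 in cDC2-gated cells (-0.81). Ndufs5 and Ndufb9, also accessory subunits of complex I, were lower in 9 of 9 classes by smaller amounts, with medians of -0.14 and -0.07. Each had an interval below 0 in only 3 classes and a smallest difference of -0.01. Atp5o, a stalk subunit of the ATP synthase, was lower in 8 of 9 classes (274 and 306 CPM in T-gated, 205 and 254 in B-gated cells). Cox7a2l was higher with gluten in the 3 endocrine classes (327 and 292 CPM in alpha-gated, 417 and 378 in delta-gated cells) and lower in T-gated (550 and 613), macrophage-gated (402 and 497) and endothelial-gated cells (410 and 557). In alpha-gated cells Uqcrq, a complex III subunit, stood at 199 and 172 CPM (0.21), Cox4i1 at 546 and 507 (0.11), Ndufb6 at 89.0 and 107 (-0.27), Ndufa1 at 131 and 157 (-0.26) and Sdhd at 97.5 and 116 (-0.25). Delta-gated cells had Ndufa6 at 286 and 243 CPM (0.23), Uqcrh at 449 and 412 (0.13), Atp5k at 114 and 153 (-0.42), Atp5g3 at 183 and 227 (-0.31) and Ndufc2 at 239 and 294 (-0.30).

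Among leukocytes, T-gated cells had Cox5b at 380 and 324 CPM (0.23 [0.13, 0.32]), Atp5l at 475 and 419 (0.18) and Cox6c at 468 and 415 (0.17). B-gated cells had Ndufv1, the NADH-binding subunit of complex I, at 71.1 and 51.1 CPM (0.48 [0.15, 0.80]), Uqcrq at 267 and 216 (0.30) and Ndufs7 at 117 and 143 (-0.29). In macrophage-gated cells Ndufs1, the largest core subunit of complex I, stood at 16.5 and 32.0 CPM, from only 20 and 68 UMIs, with a log2 ratio of -0.96 [-1.76, -0.22]. Ndufs7 (131 and 180 CPM, -0.46) was also lower there, and Ndufa12 (175 and 127 CPM, 0.46), Uqcrc1 (114 and 83.3 CPM, 0.45) and Ndufa4 (522 and 462 CPM, 0.17) were higher. Ndufb3 in cDC2-gated cells stood at 128 and 188 CPM (-0.56 [-1.03, -0.10]) from 61 and 120 UMIs. Among stromal cells, Uqcrh was higher with gluten in endothelial-gated (465 and 396 CPM) and mesenchymal-gated cells (391 and 319 CPM). Endothelial-gated cells also had Ndufs6 at 123 and 89.2 CPM (0.46), Ndufa7 at 234 and 187 (0.32) and Atp5f1 at 246 and 296 (-0.27). Mesenchymal-gated cells had Ndufs3 at 144 and 98.6 CPM (0.55), Atp5b, the catalytic beta subunit of the ATP synthase, at 436 and 353 (0.30) and Cox7b at 189 and 242 (-0.36).

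Barcodes above 20% mitochondrial UMIs were far more frequent with gluten, above all among beta-gated barcodes. Because the filter at 20% mitochondrial UMIs is set on members of the list, values before it are given too. Of all barcodes, 591 with gluten (7.21% [6.66, 7.79]) and 183 with HC alone (2.36% [2.03, 2.72]) were above 20%, and 68.5% and 71.6% of these entered no gate. Beta-gated barcodes above 20% numbered 141 of 1489 (9.47% [8.03, 11.1]) and 19 of 1640 (1.16% [0.699, 1.80]). Alpha-gated barcodes, from the same islets, numbered 4 of 1076 (0.372%) and 0 of 591 (up to 0.622% by the exact interval), and T-gated barcodes 12 of 1120 (1.07%) and 19 of 2115 (0.898%). B-gated barcodes numbered 16 of 843 (1.90%) and 6 of 1081 (0.555%). The beta-gated barcodes above 20% were shallow, with medians of 2329 and 2677 UMIs and 697 and 910 genes. Their UMIs were 37.8% and 34.0% mitochondrial, 18.5% and 17.2% hormone and 0.319% and 0.415% nuclear members, against 61.7% and 62.0% hormone in the kept beta-gated cells. The step between also held more beta-gated barcodes with gluten, 7.05% and 3.23% at 5 to 10% mitochondrial UMIs and 2.82% and 0.793% at 10 to 20%. Without the filter the log2 ratio of the mitochondrial sum in beta-gated cells was 0.50, and with a filter at 10% it was 0.33.

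**Figure D4:**
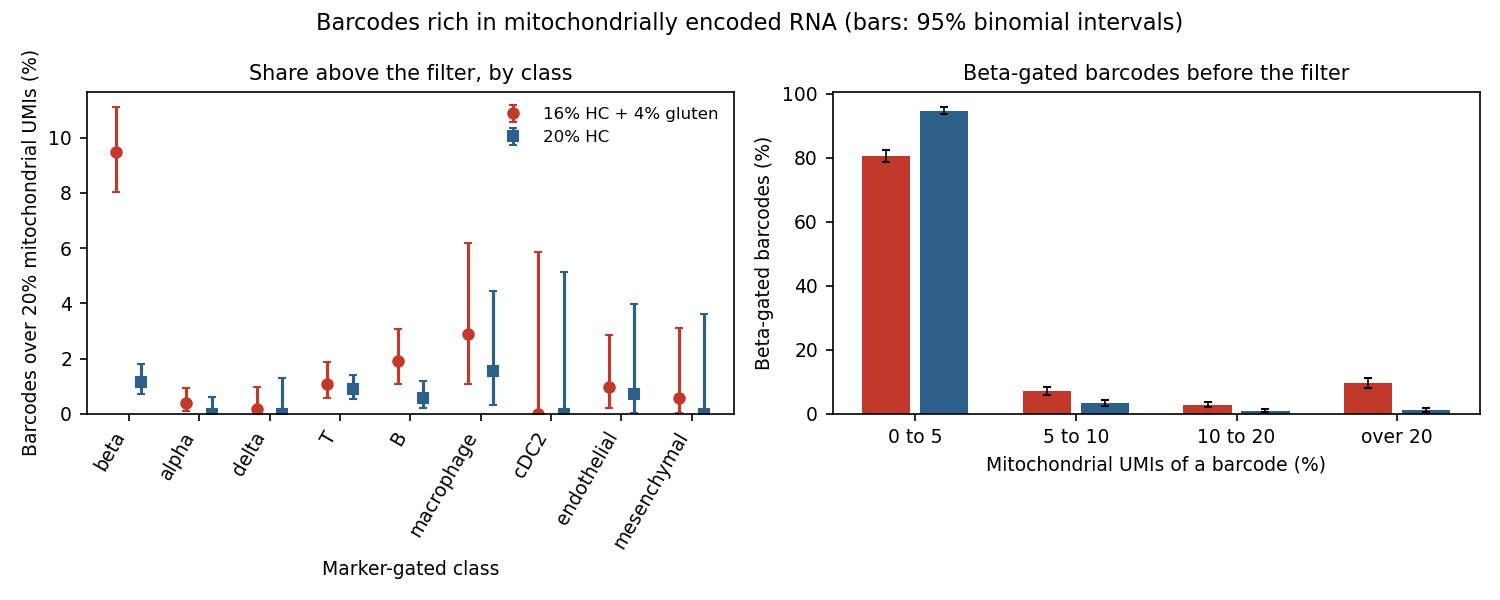
Left, share (%) of marker-gated barcodes above 20% mitochondrial UMIs in 9 classes; right, share (%) of beta-gated barcodes by their percentage of mitochondrial UMIs, before the filter; error bars are exact binomial 95% intervals. Beta-gated barcodes above 20% made up 9.47% with gluten and 1.16% with HC alone.

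Between cell types, the place of beta cells depended on what the counts were divided by. Hormone RNA took 61.7% and 62.0% of beta-gated UMIs, so shares of all other genes were lowered there. Per all UMIs, 0 of 77 nuclear members were at least 2-fold higher in beta-gated than in T-gated cells in both libraries (23.4% of all genes) and 28 were at least 2-fold lower (43.9%). Per UMIs without mitochondrial, hormone and acinar genes, 16 of 77 were at least 2-fold higher (37.9% of all genes). On that scale nuclear members made up 2.95% and 3.10% in beta-gated, 2.43% and 2.61% in alpha-gated and 2.17% and 2.12% in T-gated cells, and mitochondrial RNA stood at 7.76% and 5.97% against 4.40% and 3.54% in T-gated cells. Per UMIs without those genes, the median log2 ratio of beta-gated over T-gated cells was 0.76 and 0.82 for nuclear complex I, 0.67 and 0.60 for complex II, 0.59 and 0.61 for complex III, 0.23 and 0.36 for complex IV and 0.09 and 0.16 for complex V. Complex I took 34.9% and 35.7% of nuclear member UMIs in beta-gated cells and 27.4% and 27.6% in T-gated cells.

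By CPM of all UMIs, the 10 nuclear members with the widest range over classes in both libraries, among those with at least 50 UMIs in 1 or more classes of each library, were Cox4i2, Cox5a, Sdhb, Atp5s, Uqcrh, Ndufa8, Cox4i1, Atp5o, Ndufa3 and Ndufc2. The list depends on the scale. Per UMIs without mitochondrial, hormone and acinar genes, only 4 of the 10 stayed among the 10 widest, Cox4i2, Cox5a, Atp5s and Ndufc2, and Ndufa3 spanned 66.8 to 93.4 UMIs with gluten. Cox5a, a nuclear subunit of complex IV that assembles with Cox4 (chr9:57521274-57532426, mm10), had the widest range after Cox4i2 on both scales. It stood at 66.9 and 63.8 CPM in alpha-gated, 98.9 and 105 in beta-gated and 139 and 140 in delta-gated cells. Mesenchymal-gated cells had 233 and 248 CPM, endothelial-gated 383 and 395, B-gated 447 and 421 and T-gated 535 and 523. At the top were cDC2-gated cells with 833 and 925 CPM and macrophage-gated cells with 990 and 1145 CPM. Without mitochondrial, hormone and acinar UMIs in the total, Cox5a was still lowest in alpha-gated (110 and 111 UMIs on the same scale) and delta-gated cells (185 and 182) and highest in macrophage-gated cells (1041 and 1194), while beta-gated cells (279 and 294) passed mesenchymal-gated cells (243 and 257).

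Cox4i2, the lung-type isoform of the ubiquitous Cox4i1, was a stromal gene here (chr2:152754173-152765037, mm10). Mesenchymal-gated cells had 151 and 183 CPM from 157 and 134 UMIs, and endothelial-gated cells 27.9 and 19.4 CPM. Beta-gated cells had 0 UMIs in both libraries, where 3 UMIs would have been 0.0761 and 0.0470 CPM, so mesenchymal-gated cells were at least 1983-fold and 3902-fold higher. Cox4i1 stood at 317 and 309 CPM in beta-gated, 706 and 694 in mesenchymal-gated and 1133 and 1144 in cDC2-gated cells, but without mitochondrial, hormone and acinar UMIs beta-gated cells (892 and 861) stood above mesenchymal-gated cells (739 and 720). Ndufa8, an accessory subunit of complex I, was highest in endothelial-gated cells at 313 and 309 CPM, against 161 and 169 in T-gated and 118 and 119 in B-gated cells. Uqcrh, the hinge protein of complex III, was highest in T-gated cells at 767 and 726 CPM and lowest in beta-gated cells at 181 and 187 CPM. Without mitochondrial, hormone and acinar UMIs it was still highest in T-gated cells (813 and 759), but lowest in mesenchymal-gated cells (409 and 331), with beta-gated cells at 509 and 521. Ndufc2 of complex I was highest in macrophage-gated cells at 370 and 383 CPM, against 149 and 156 in T-gated cells. Atp5s was low throughout, with its highest CPM in delta-gated cells at 15.2 and 12.6. Without mitochondrial, hormone and acinar UMIs, delta-gated cells had 20.3 and 16.4, alpha-gated cells 13.3 and 18.7 and beta-gated cells 15.4 and 14.9. With HC alone, alpha-gated cells were then the highest.

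**Figure D5:**
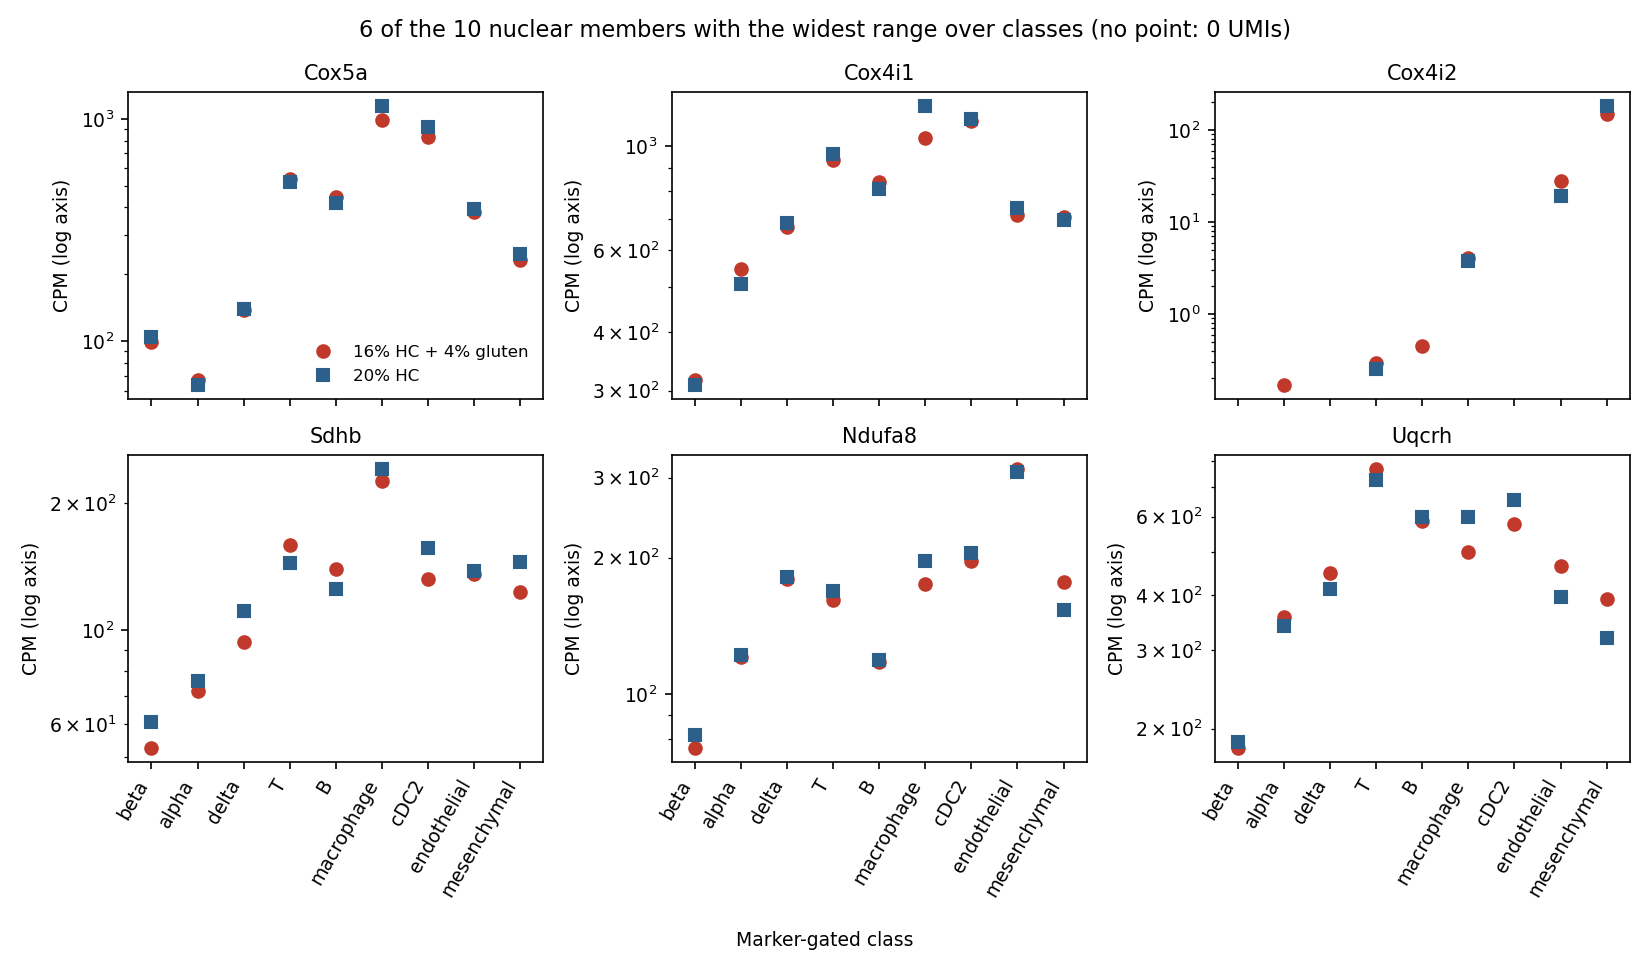
CPM (log axes) of 6 nuclear members in 9 marker-gated classes in the library with gluten (circles) and with HC alone (squares); a missing point is 0 UMIs. Cox5a is lowest in the 3 endocrine classes and Cox4i2 is highest in mesenchymal-gated cells.

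Complex II, which has no mitochondrially encoded subunit and also serves the TCA cycle, was highest in macrophage-gated cells for its iron-sulfur subunit Sdhb, at 226 and 241 CPM against 52.6 and 60.5 in beta-gated cells. Without mitochondrial, hormone and acinar UMIs, Sdhb was still highest in macrophage-gated cells, but beta-gated cells, at 148 and 169, were not the lowest (alpha-gated 118 and 132). The flavoprotein subunit Sdha stood at 50.9 and 47.9 CPM in beta-gated and 102 and 110 in delta-gated cells, and at 143 and 134 against 137 and 143 on the other scale. The membrane anchor Sdhc stood at 32.6 and 33.9 CPM in beta-gated and 74.1 and 86.2 in macrophage-gated cells, but at 91.7 and 94.7 against 78.0 and 89.9 on the other scale. Sdhd, the other anchor, stood at 59.4 and 61.7 against 123 and 122 CPM, and at 167 and 172 against 129 and 127 on the other scale. The order of these classes for Sdhc and Sdhd thus turned with the scale.

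Several subunits have tissue isoforms. Cox8a stood at 482 and 490 CPM in beta-gated and 787 and 762 in T-gated cells, and in the opposite order, at 1357 and 1367 against 835 and 796, without mitochondrial, hormone and acinar UMIs. Cox8b had 6 and 3 UMIs in beta-gated cells and 0 in the other 8 classes, and Cox8c had 0 in all 9. Cox7a2 stood at 197 and 202 CPM in beta-gated cells, and its heart and muscle form Cox7a1 at 0.634 and 0.596 CPM. The testis form Cox6b2 stood at 23.0 and 25.1 CPM in cDC2-gated cells from only 11 and 16 UMIs, and Cox7b2 had 7 and 10 UMIs in beta-gated cells beside 124 and 131 CPM of Cox7b. The 3 genes Atp5g1, Atp5g2 and Atp5g3 encode the same mature c subunit of the ATP synthase. Atp5g1 stood at 281 and 338 CPM in beta-gated and 297 and 289 in T-gated cells, while Atp5g2 stood at 265 and 287 CPM in beta-gated, 546 and 568 in alpha-gated and 737 and 707 in T-gated cells. Atp5g3 stood at 97.7 and 114 CPM in beta-gated and 256 and 277 in T-gated cells. On the scale without mitochondrial, hormone and acinar UMIs, beta-gated against T-gated cells stood at 792 and 942 against 315 and 302 for Atp5g1, 748 and 801 against 782 and 739 for Atp5g2, and 275 and 318 against 272 and 289 for Atp5g3.

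In beta-gated cells most other gene groups of the pathway had medians nearer to the nuclear members (-0.07) than to the mitochondrial ones (0.27). Of 15 measured TCA cycle genes 4 were higher and 11 lower with gluten (median -0.12), with 0 called at 1.25-fold. Of 77 mitochondrial ribosomal protein genes, 23 were higher and 54 lower (median -0.06), with 3 called lower and 0 higher. These counts stand beside 11.2% of all genes called higher and 8.7% called lower in beta-gated cells. Of 12 carriers and electron carriers, 2 were higher and 10 lower (median -0.13), with cytochrome c (Cycs) at 59.4 and 76.3 CPM the 1 call. Genes for transcription and biogenesis of mitochondria differed from these. Of 12 measured, 10 were higher with gluten (median 0.16) and 4 (33.3%, against 11.2% of all genes) were called higher, at low levels: the coactivator Ppargc1b at 2.66 and 1.61 CPM (0.72 [0.32, 1.13]), the regulators Esrra at 4.87 and 3.78 CPM (0.37) and Nrf1 at 6.67 and 5.16 CPM (0.37), and the mitochondrial DNA helicase Twnk at 4.16 and 3.32 CPM (0.32). Tfam, which packages mitochondrial DNA and starts its transcription, stood at 17.5 and 17.2 CPM (0.02). In alpha-gated cells the same list had 3 of 10 called higher (30.0%, against 18.8% of all genes) and 2 called lower (20.0%, against 9.48%), Tfam among the latter at 22.3 and 32.1 CPM (-0.52). In T-gated cells it had 1 of 10 called higher (10%, against 10.3%) and 4 called lower (40%, against 27.4%). The median there was -0.27 beside -0.12 for all genes. These T-gated values rest on the UMI minimum, which admitted the sparsest genes only when lower with gluten. Assembly factors had 2 of 31 called higher (6.45%) and 0 lower in beta-gated cells, and the 12 genes of mitochondrial RNA handling 0 higher and 1 lower.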

How the data were processed

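Single-cell RNA was counted in 2 islet libraries, 1 per diet, each from cells of 3 pooled mice. The authors deposited raw counts, which are UMIs per gene and barcode. The submitters' processing notes name Cell Ranger 4.0.0 and mm10. Barcode calling and annotation were not given in the sources used here. Symbols came from GENCODE vM21 (30934 of 31053 identifiers). RNA of nuclear members can also map to processed pseudogenes, and the handling of such reads is not given.

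Barcodes needed at least 500 UMIs, 200 genes and at most 20% mitochondrial UMIs (7577 and 7565 passed), and the 6% with the highest Scrublet score (scanpy 1.11.5) were removed, 455 and 454. Gated cells had at least 3 and 40% of a type's markers detected and no other lineage at 50% of that share. Endocrine cells were split by a hormone holding at least 2% of UMIs and 3 times the next. Cells with 5% acinar UMIs were left out. Ductal markers were not counted against endocrine cells, a change made after seeing marker genes. Kept cells held 78397130 and 106071567 UMIs.

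Shares carry exact Clopper-Pearson intervals and ratios exact conditional binomial intervals (numpy 2.4.6, scipy 1.17.1). The ratio intervals were also run on simulated Poisson counts. These hold no variation between cells, pools or libraries, so the run could not show how far such variation would widen the intervals. Named genes were all mitochondrial members, up to 3 nuclear members per class and direction whose interval bound nearer 0 lay farthest out, the 10 with the widest range over classes (the minimum of 50 UMIs was added after seeing the data), isoform sets, Ndufa4 and the Sdh genes. Counts of 0 used a floor of 3 UMIs. Members and lists were chosen with earlier results of these data known. Alternatives varied the filters, doublets, gates, scaling, weighting of cells and UMI minimum. The values of 1 nuclear member are not reported here by name.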

Additional observations from a re-analysis of the deposited data

How the results depend on the processing

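The mitochondrial sum was higher with gluten in all classes compared under each alternative run (9 classes, or 8 with the stricter gate, where cDC2-gated cells fell under 50 cells), and its largest log2 ratio, in beta-gated cells, was 0.50 without the mitochondrial filter and 0.33 at 10%. The lowest was 0.13, in alpha-gated cells scaled without mitochondrial, hormone and acinar genes. Within bins of UMIs per cell, an alternative chosen after seeing the data, nuclear members were higher with gluten in 7 classes against 4 (5 without each class's least filled bin). Some of these values lay at or near 0. The nuclear to mitochondrial ratio was higher in 1 class against 0, the B-gated cells, and in 0 without each class's least filled bin. In alpha-, delta-, T- and macrophage-gated cells that bin was the one with the opposite mitochondrial order. Nuclear members higher with gluten in beta-gated cells numbered 17, and 9 when every cell weighed the same; the cause was not tested. Those at least 2-fold higher in beta-gated than T-gated cells numbered 0, and 16 with scaling without mitochondrial, hormone and acinar genes, which takes hormone RNA out of the total. Of 187 single ratios and sums, 180 to 186 kept their sign under each alternative (170 of 171 with the stricter gate), and no value past 1.25-fold changed sign. Counting ductal markers against endocrine cells gave 20 higher and 57 lower nuclear members in beta-gated cells, against 17 and 60. No paired analysis was possible because each diet has 1 library. Depth limits members with few UMIs, such as mt-Nd6 and mt-Atp8, and the small cDC2 class, where 3 UMIs are 6.28 and 4.70 CPM.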

Other observations

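Rarer gated types were not compared, and their shares are given as values only. Mitochondrial RNA made up 2.29% and 2.18% of UMIs in PP-gated cells (43 and 39 cells), 1.47% and 1.29% in plasma-gated cells (18 and 11), 5.08% and 3.23% in pDC-gated cells (22 and 17) and 3.18% and 2.99% in cDC1-gated cells (40 and 51). Ductal-gated cells (20 and 24) had 4.08% and 4.58%, lower with gluten. Plasma-gated cells also had small nuclear shares, 0.849% and 0.909%, against 1.71% and 1.63% in B-gated cells. Of the paralogs that the symbol rule leaves out, Cox6a2 stood at 4.26 and 4.97 CPM in beta-gated cells and Ndufa4l2, a paralog of Ndufa4, at 304 and 337 CPM in mesenchymal-gated cells.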
